A study of Arabidopsis thaliana with 25 samples.

Results

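AT4G30380, AT2G34400 and AT4G37240 are 3 Arabidopsis thaliana genes whose transcripts were far more abundant in hypoxic roots than in normoxic roots, while the same treatment was accompanied by much smaller differences in shoots. They were chosen by their measured levels over all 12 groups of the study, for a similar normoxic level in root and shoot and a larger rise with hypoxia in roots, with no numerical limit. They are 3 of 13355 genes with a probe set of their own, a probe set being the short probes that together read 1 transcript on the array. Tests ran over all 22746 probe sets, and each of the 3 genes was read by 1 of them. Because the levels in normoxia and hypoxia and in root and shoot chose the genes, those values are given below as a description, without a test. The tests on these 3 genes were of differences between genotypes, which the choice did not use.

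The data are 25 Affymetrix ATH1 arrays of seedlings grown for 10 days on plates with sucrose, 13 of roots and 12 of shoots. There were 3 genotypes: mpk6, in which a T-DNA insertion knocks out MPK6 (a MAP kinase that passes on stress signals), MPK6ox, in which a T-DNA overexpresses it from a 35S promoter, and WT, all in Col-0. The 35S promoter is active in most plant tissues, and the labels do not give the number of independent lines behind mpk6 or MPK6ox. For hypoxia, whole seedlings stayed in an airtight chamber flooded with 99.998% argon, and for normoxia they stayed in an unclosed box, before roots and shoots were separated. Every group held 2 arrays except MPK6ox root hypoxia, which held 3. How long hypoxia lasted is uncertain, since the treatment protocol gives 2 h and the sample source labels give 9 h. Arrays of 1 group correlated at 0.982 or higher, and median log2 values per array lay between 6.87 and 7.07. The level of MPK6 was not used here, which leaves the genotype labels without a check. Nothing in the labels says that the numbered biological replicates were separate cultures, so errors cover only the spread between these samples.

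When oxygen is short, plant cells can no longer make enough ATP by respiration and turn to glycolysis and fermentation. Transcription factors of the group VII ERF family, which are degraded when oxygen is present, then accumulate and switch on a core set of hypoxia genes in roots and shoots alike. Around that core, organs differ in which genes respond. AT4G30380 carries the RefSeq synonym expansin-like B2 precursor. Expansins are proteins that loosen plant cell walls, but the synonym alone does not show that the product of AT4G30380 does so. General plant gene descriptions place AT2G34400 in the pentatricopeptide repeat family, whose members bind organelle RNA, and AT4G37240 among proteins with the plant domain DUF4228, whose function is little known. The gene table used here gives neither of those placements, so they were not checked, and no protein or promoter sequence was used.

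AT4G30380 had the largest difference of the 3 between hypoxic and normoxic roots. In hypoxic roots its log2 values were 9.33 and 8.96 in mpk6, 8.72, 7.64 and 9.44 in MPK6ox, and 9.42 and 8.32 in WT. The normoxic root values were 4.23 and 4.32 in mpk6, 4.22 and 4.27 in MPK6ox, and 4.31 and 4.52 in WT. Every hypoxic root array thus lay more than 3 log2 units above every normoxic root array, and the genotypes overlapped in hypoxic roots. In normoxic roots both WT values lay above both MPK6ox values. MPK6ox minus WT was -0.17 ± 0.41 there (log2, SE) and did not pass after adjustment (limma adjusted p = 0.999995). How many of all probe sets separated in this way was not counted. Hypoxic shoots gave 5.83 and 5.22 in mpk6, 5.82 and 5.34 in MPK6ox, and 5.56 and 5.52 in WT. Normoxic shoots gave 4.57 and 4.27 in mpk6, 4.34 and 4.27 in MPK6ox, and 4.30 and 4.37 in WT. The shoot arrays therefore also separated by treatment, with a gap much smaller than in roots. Hypoxia minus normoxia was 4.87 ± 0.41 in mpk6 roots, 4.36 ± 0.38 in MPK6ox roots and 4.45 ± 0.41 in WT roots (log2, SE of the fit), which is 29.3-fold, 20.5-fold and 21.9-fold. In shoots the same differences were 1.11 ± 0.41, 1.28 ± 0.41 and 1.20 ± 0.41 in mpk6, MPK6ox and WT, or 2.15-fold, 2.42-fold and 2.30-fold. AT4G30380 was thus the one of the 3 genes with at least a 2-fold higher mean in hypoxic than in normoxic shoots in each genotype.

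AT2G34400 had the smallest standard errors of the 3 genes. Its hypoxic root values were 10.26 and 9.65 in mpk6, 9.49, 9.28 and 9.42 in MPK6ox, and 9.71 and 9.47 in WT. In normoxic roots it stood at 6.22 and 6.38 in mpk6, 6.11 and 6.25 in MPK6ox, and 6.28 and 6.20 in WT. Again no normoxic root array came near a hypoxic one. The differences between hypoxic and normoxic roots were 3.65 ± 0.17 in mpk6, 3.22 ± 0.15 in MPK6ox and 3.35 ± 0.17 in WT (log2, SE), or 12.6-fold, 9.29-fold and 10.2-fold. In shoots its values ran from 6.64 to 7.01 with a median of 6.91 in hypoxia (n = 6) and from 6.32 to 6.61 with a median of 6.47 in normoxia (n = 6). The 2 ranges nearly touched, and the differences in shoots were 0.59, 0.40 and 0.27 in mpk6, MPK6ox and WT (SE 0.17 each), at most 1.51-fold.

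AT4G37240 had the smallest differences of the 3 on average between hypoxia and normoxia in both organs. Its hypoxic root values were 8.16 and 8.65 in mpk6, 8.61, 8.53 and 9.34 in MPK6ox, and 9.41 and 8.91 in WT. Normoxic roots gave 5.51 and 6.19 in mpk6, 5.28 and 6.09 in MPK6ox, and 5.46 and 6.002 in WT. The hypoxic and normoxic root arrays did not overlap in any genotype. Both hypoxic mpk6 values lay below both hypoxic WT values, a difference that did not pass after adjustment (limma adjusted p = 0.465). Hypoxia minus normoxia in roots was 2.56 ± 0.34 in mpk6, 3.14 ± 0.31 in MPK6ox and 3.43 ± 0.34 in WT (log2, SE), or 5.88-fold, 8.82-fold and 10.8-fold. In shoots the 6 hypoxic arrays lay between 6.92 and 7.37 (median 7.17) and the 6 normoxic arrays between 6.56 and 7.14 (median 6.73), so these ranges overlapped. The shoot differences were 0.27, 0.36 and 0.47 in mpk6, MPK6ox and WT, with an SE of 0.34 for each.

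**Figure D1:**
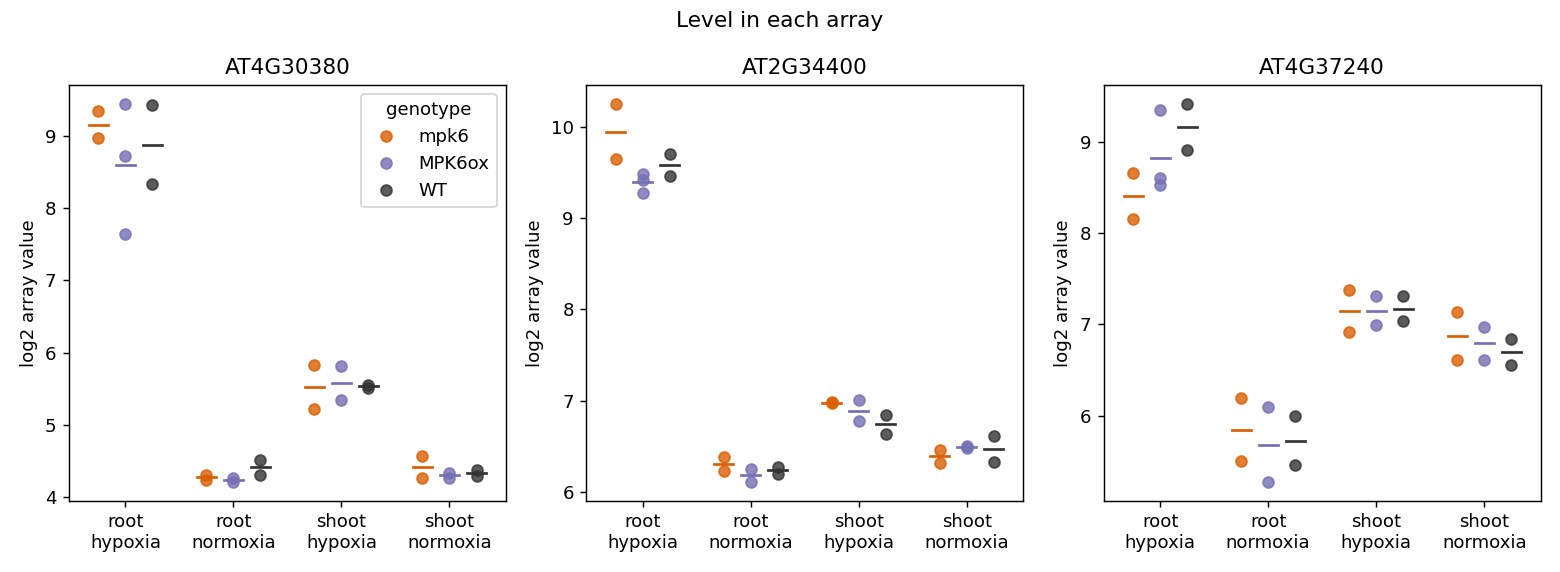
Log2 array value of each gene in every array (points) with the group mean (bars), by organ and treatment on the x axis and coloured by genotype. The 7 hypoxic root arrays stood above all other arrays for each gene, and for AT4G37240 the normoxic root arrays stood below the normoxic shoot arrays.

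The level was similar in normoxic roots and normoxic shoots for AT4G30380 and AT2G34400, but not for AT4G37240, against the description by which it was chosen. Averaged over genotypes, normoxic roots minus normoxic shoots was -0.04 ± 0.24 for AT4G30380 and -0.21 ± 0.10 for AT2G34400 (log2, SE). For AT4G37240 it was -1.03 ± 0.20, a 2.05-fold lower level in roots, with -1.02 in mpk6, -1.11 in MPK6ox and -0.97 in WT. AT4G37240 lay at 5.28 to 6.19 in the 6 normoxic root arrays and at 6.56 to 7.14 in the 6 normoxic shoot arrays, with no overlap. All normoxic shoot arrays were above all normoxic root arrays for 1 of the 3 genes and for 19.6% of all probe sets tested. The order of the organs was thus opposite in the 2 treatments for AT4G37240, with hypoxic roots minus hypoxic shoots at 1.64 ± 0.19. The same hypoxic difference was 3.32 ± 0.23 for AT4G30380 and 2.78 ± 0.09 for AT2G34400. Whether the low normoxic values were above background was not assessed, and the folds above are ratios of array values.

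Hypoxic roots of all 3 genotypes headed the order of the 12 group means for each gene. Among those 3 groups neighbours overlapped, in the order mpk6, WT, MPK6ox for AT4G30380 and AT2G34400 and WT, MPK6ox, mpk6 for AT4G37240. A gap without overlap followed, and the 3 hypoxic shoot groups came next, each overlapping with its neighbour in the order. For AT2G34400, mpk6 shoots lay above WT shoots in hypoxia without overlap (2 arrays per group). That difference of 0.24 ± 0.17 (log2, SE) did not pass after adjustment (limma adjusted p = 0.9998). The share of all probe sets with such a separation between genotypes was not counted. For AT4G30380 and AT2G34400 another gap separated the hypoxic shoot groups from the 6 normoxic groups, whose neighbours overlapped throughout. For AT4G37240 the lowest hypoxic shoot group overlapped with the highest normoxic shoot group, both of mpk6. Within WT and within MPK6ox the hypoxic shoot arrays lay above the normoxic ones (2 arrays per group). These shoot differences of 0.47 and 0.36, with the SE given above, were not tested. The share of all probe sets that separated in the same way within a genotype was not counted. The next gap in the order lay between the normoxic shoots and the normoxic roots, which were lowest. All 7 hypoxic root arrays exceeded all 18 other arrays for 3 of the 3 genes and for 1.21% of the probe sets tested. All hypoxic root arrays exceeded all normoxic root arrays for the 3 genes and for 3.69% of probe sets. All hypoxic shoot arrays exceeded all normoxic shoot arrays for AT4G30380 and AT2G34400 and for 2.41% of probe sets. These counts follow from the way the genes were chosen and are not read further.

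The excess of the root change over the shoot change was 3.37 ± 0.33 for AT4G30380, 2.98 ± 0.13 for AT2G34400 and 2.68 ± 0.27 for AT4G37240, averaged over genotypes (log2, SE). These values ranked 3, 8 and 19 among 22746 probe sets, whose median was 0.01. For AT4G30380 the excess was 3.77 in mpk6, 3.08 in MPK6ox and 3.25 in WT. It was 3.06, 2.82 and 3.08 for AT2G34400 and 2.28, 2.79 and 2.96 for AT4G37240 in the same order of genotypes. By the root change alone the genes ranked 25, 40 and 57, and by the shoot change alone 168, 803 and 986. Each of the 3 genes thus ranked higher by the gap between the organs than by the change in either organ. A larger rise in roots was part of their choice, so these ranks follow from it.

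**Figure D2:**
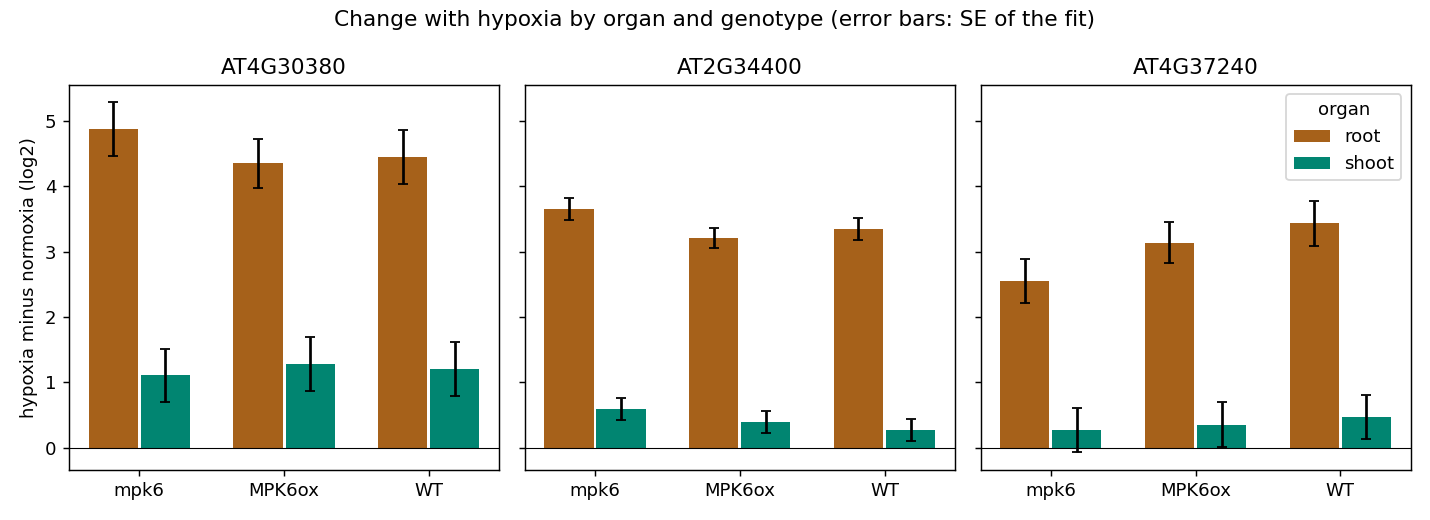
Hypoxia minus normoxia (log2) in roots and in shoots of each genotype, with the SE of the fit as error bars. Root bars reach 2.56 to 4.87, whereas shoot bars stay between 0.27 and 1.28, and the mpk6 root bar of AT4G37240 is the lowest root bar.

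**Figure D3:**
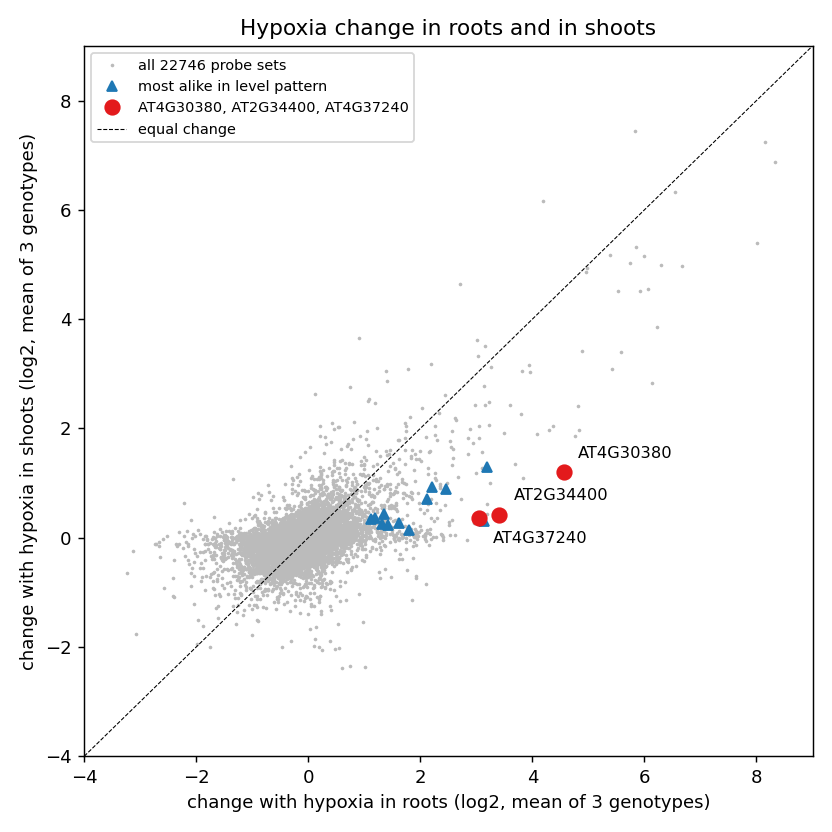
Change with hypoxia in roots (x axis) against shoots (y axis), log2, averaged over 3 genotypes, for all probe sets (grey dots), the 3 genes (red circles) and the genes with the most similar level pattern (blue triangles), with a dashed line of equal change. The 3 genes lie far to the right of the line, at root changes of 4.56, 3.41 and 3.04 and shoot changes of 1.19, 0.42 and 0.37.

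The comparison of mpk6 and MPK6ox with WT asked whether the level of these genes depended on MPK6. Each gene was tested in 18 comparisons: each line against WT in each organ and treatment, each line against WT over all of these, the difference between line and WT in the hypoxia change of each organ, and the differences between root and shoot in the line effect and in its hypoxia change. None of the 54 tests passed in limma (adjusted p under 0.05, over all probe sets of a comparison), with 2 at an unadjusted p under 0.05. Over all probe sets 0.28% of such tests passed and 4.41% had an unadjusted p under 0.05. The smallest adjusted p of the 54 was 0.465.

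AT4G37240 stood at 8.41 ± 0.35 in hypoxic mpk6 roots and at 9.16 ± 0.36 in hypoxic WT roots (log2, SD, n = 2 each). The difference of -0.76 had a 95% interval of -1.48 to -0.04 and a limma adjusted p of 0.465. The 2 mpk6 arrays were both lower than the 2 WT arrays. In normoxic roots mpk6 minus WT was 0.12, and the hypoxia change of mpk6 roots minus that of WT roots was -0.88 (95% interval -1.89 to 0.14, limma adjusted p = 0.997).

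AT2G34400 averaged 9.95 ± 0.43 in hypoxic mpk6 roots and 9.59 ± 0.17 in hypoxic WT roots (log2, SD, n = 2 each), a difference of 0.36 with a 95% interval of 0.01 to 0.72 (limma adjusted p = 0.475). The ranges of these arrays overlapped. Without mpk6 root hypoxia replicate 2, which leaves the higher mpk6 array alone, the difference was 0.67. Without replicate 1, which leaves the lower one, it was 0.06. Such fits take the spread from the other groups and assume that the lone array varies as they do. Its hypoxia change differed from that of WT by 0.30 in mpk6 roots (95% interval -0.20 to 0.80) and by -0.14 in MPK6ox roots (-0.61 to 0.34).

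For AT4G30380 hypoxic roots averaged 9.15 ± 0.26 in mpk6 (SD, n = 2), 8.60 ± 0.91 in MPK6ox (n = 3) and 8.87 ± 0.77 in WT (n = 2). With this spread, the largest in the 3 genes, the hypoxia change of roots minus that of WT roots was 0.42 in mpk6 (95% interval -0.81 to 1.65) and -0.10 in MPK6ox (-1.28 to 1.08). Both intervals span 0 and reach beyond 1 log2 unit on at least 1 side. For AT4G37240 the MPK6ox roots differed from WT roots in their hypoxia change by -0.29 (95% interval -1.27 to 0.68). Averaged over organs and treatments, the lines differed from WT by -0.12 to 0.15 over the 3 genes.

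**Figure D4:**
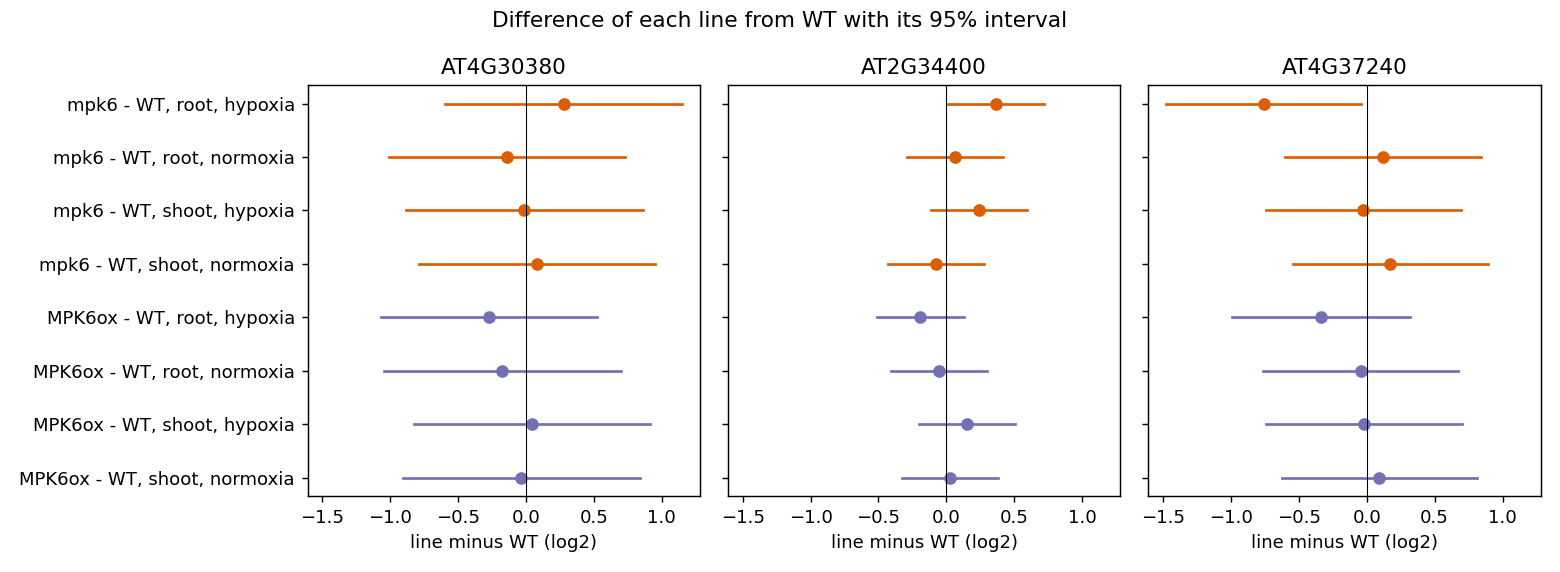
Difference of each line from WT (log2, points) with its 95% interval (lines) in each organ and treatment, for mpk6 (orange) and MPK6ox (purple). All intervals include 0 except those of AT2G34400 and AT4G37240 in hypoxic mpk6 roots, which lie on opposite sides of 0 and did not pass after adjustment.

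Genes that mark green tissue were also higher in the hypoxic root arrays. Of 6 measured photosynthesis genes out of 18 listed (PSBW, PSAN, PRK, RCA, SBPASE and PSBY), 6 rose in hypoxic roots by limma, averaged over genotypes, with changes of 1.49 to 2.08, against 9.5% of all probe sets. In shoots 0 of 6 passed in either direction. Their mean level ran from 8.00 to 10.04 in hypoxic roots, from 6.21 to 8.04 in normoxic roots, from 13.01 to 13.16 in hypoxic shoots and from 12.96 to 13.14 in normoxic shoots. The 3 measured root markers of 13 listed, EXPA7, EXPA18 and PYK10, fell in hypoxic roots, with changes of -2.37 to -0.32, against 14.8% of all probe sets that fell. Their mean level ran from 9.50 to 10.20 in hypoxic roots, from 11.09 to 11.72 in normoxic roots, from 8.08 to 8.43 in hypoxic shoots and from 8.21 to 8.54 in normoxic shoots. PYK10 was high in both organs, with normoxic medians of 14.61 in roots and 13.76 in shoots, and it raised the shoot mean. EXPA7 and EXPA18 had medians of 5.36 and 5.98 in normoxic shoots. In tissue samples fewer cells of a type and less RNA per cell cannot be told apart. Each of the 3 genes was lower in every hypoxic shoot array than in every hypoxic root array, which follows from their choice. Whether green tissue in the root arrays had a part in their values was not tested. Both marker lists were drawn up by hand with earlier results of these data known.

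Among the 7 hypoxic root arrays, AT4G30380 was lowest, at 7.64, in the MPK6ox array whose photosynthesis mean was highest, at 10.04. The WT array with the next highest mean, 9.38, had the next lowest AT4G30380 value, 8.32. The order ended there, since MPK6ox replicate 3, next by mean at 8.89, had the highest AT4G30380 value, 9.44. In each of the 3 genotypes the photosynthesis mean was higher in replicate 2 than in replicate 1, at 8.83 and 8.00 in mpk6, 10.04 and 8.13 in MPK6ox, and 9.38 and 8.45 in WT. AT4G30380 and AT2G34400 were lower in replicate 2 in 3 of 3 genotypes, and AT4G37240 was lower in 2 of 3. These pairs leave out MPK6ox replicate 3, whose photosynthesis mean of 8.89 was also above that of replicate 1. In it AT4G30380 (9.44 against 8.72) and AT4G37240 (9.34 against 8.61) were higher than in replicate 1. AT2G34400 was lower (9.42 against 9.49). This was looked at with the values known, and its part in the results was not tested.

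The genes most like the 3 in their 12 group means were found by Pearson correlation among the 4424 probe sets with 1 gene and a range of at least 1 log2 unit. AT4G30380 and AT2G34400 headed each other's list at r = 0.991. AT4G37240 correlated with them at 0.925 and 0.918 and was in neither list. Since the groups share the same arrays and the genes were picked for one pattern, these values describe likeness only.

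After AT2G34400, AT4G30380 was most like AT5G42840 (r = 0.990), AT4G17260 (0.985), AT4G31020 (0.976) and AT1G72540 (0.974). AT4G17260, commonly described as a lactate dehydrogenase gene of fermentation, was higher by 3.19 in hypoxic roots and by 1.28 in hypoxic shoots than in normoxia (log2, averaged over genotypes). AT1G72540 was also the next most like AT2G34400 (r = 0.989), with 3.13 in roots against 0.31 in shoots. Its excess of the root change, 2.82, lay between those of AT2G34400 and AT4G37240. The remaining genes like AT2G34400 were AT2G38370 (r = 0.978), AT1G71980 (0.974) and AT5G09620 (0.973), with root changes of 1.79, 1.32 and 1.62 and shoot changes of 0.15, 0.26 and 0.28.

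The genes most like AT4G37240 appeared in neither of the other lists. They were AT1G16840 (r = 0.970), AT3G25410 (0.962), AT2G18600 (0.960), AT1G66180 (0.958) and AT5G61590 (0.956), the last known as DEWAX, for decrease wax biosynthesis. All 5 stood lower in normoxic roots than in normoxic shoots, by 0.13 to 0.67, as AT4G37240 did by 1.03. They were picked for likeness over these same groups, so a shared order is not independent of the pick. Nor was it particular to them, since AT2G34400 also stood lower in normoxic roots (roots minus shoots -0.21). The likest, AT1G16840, was higher in hypoxia by 2.11 in roots and 0.72 in shoots.

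**Figure D5:**
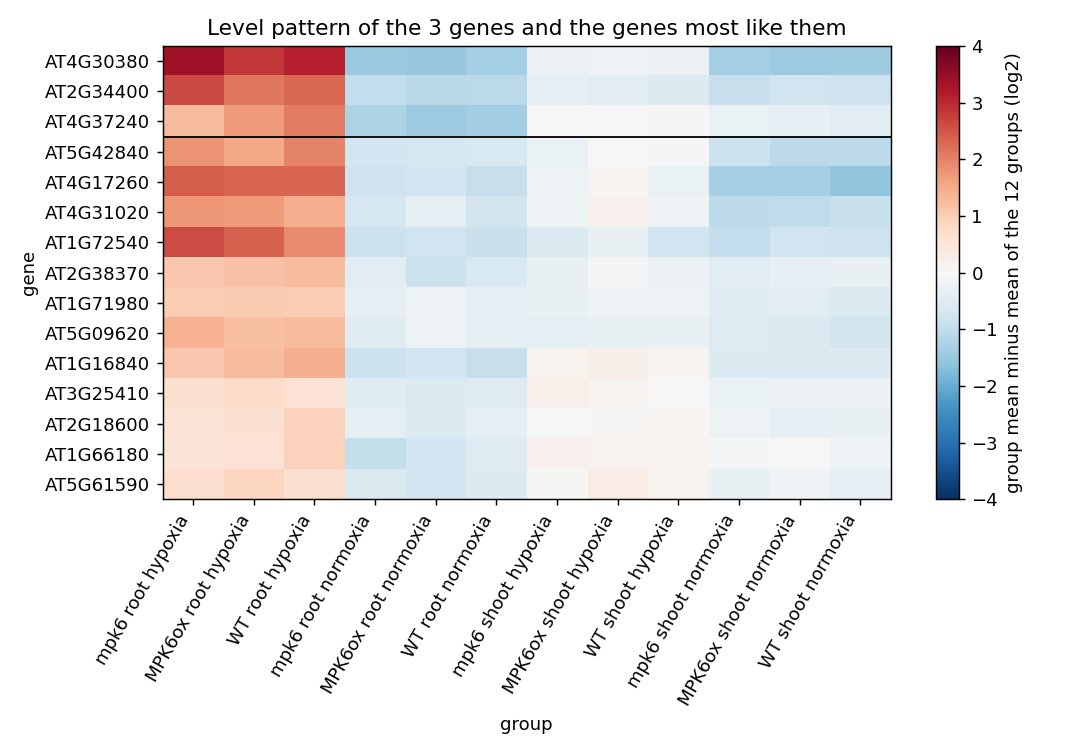
Group mean minus the mean of the 12 groups (log2, colour) for the 3 genes above the line and the 12 genes most like them below it, with hypoxic roots at the left. All rows are highest in the hypoxic roots, and the rows most like AT4G37240 are darker blue in normoxic roots than in normoxic shoots.

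Most genes of a wider list of low-oxygen response genes rose in both organs. The list was drawn up by hand with earlier results of these data known, so its counts are not independent of them. Of 27 measured genes out of 51 on a list of low-oxygen response genes, 27 rose in hypoxic roots by limma, averaged over genotypes, against 9.5% of all probe sets. In hypoxic shoots 26 of the 27 rose, against 3.14%. The rise was larger in roots for 14 and smaller for 2, against 3.23% and 4.31% of all probe sets. The median excess of the root change in this list was 0.73, against 0.01 over all probe sets. Its largest root excesses were those of AT5G44730 (2.41), AT3G29970 (2.32), AT4G17260 (1.90), AT4G33560 (1.51) and AT4G17670 (1.49). Each lay below the values of the 3 genes, which were chosen for a larger rise in roots. AT5G66985 (-1.99) and AT4G39675 (-1.93) rose more in shoots.

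Of 18 other genes with an expansin name, 8 fell and 1 rose in hypoxic roots (14.8% and 9.5% of all probe sets), with a median change of -0.37, whereas AT4G30380 was higher there. The falls included EXPA18 (-2.37, limma adjusted p = 2.65e-07), EXPA7 (-2.08, adjusted p = 1.43e-09) and EXPA15 (-1.56, adjusted p = 7e-08), and EXLA3 rose by 0.55 (adjusted p = 0.0192). In shoots 2 fell (5.28% of all probe sets), EXPA16 and EXLA2, and 0 rose. The root change exceeded the shoot change for EXPA16 (1.28) and EXLA2 (0.78), both of which fell in shoots and did not pass in roots. It was lower for 5, EXPA18, EXPA7, EXPA15, EXPB3 and EXPB1 (-2.26 to -0.46). These counts of 2 and 5 stand against 3.23% and 4.31% of all probe sets. The calls for EXPB3 and EXPB1 were lost in 15 and 16 of 25 fits that left out 1 array (limma adjusted p up to 0.0975), and the rise of EXLA3 in roots in 4 of 25. EXPA7 and EXPA18 are also 2 of the 3 root markers above.

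Among 16 other genes listed for the domain DUF4228, 3 rose and 2 fell in roots (9.5% and 14.8% of all probe sets), and 3 rose and 1 fell in shoots (3.14% and 5.28%). AT1G76600 rose 7.37-fold in roots (2.88 ± 0.18, SE, limma adjusted p = 3.17e-09) and 3.95-fold in shoots (1.98 ± 0.18, adjusted p = 1.46e-06). Its excess in roots of 0.90 ± 0.25 passed (adjusted p = 0.039), as did that of AT2G23690 (0.42 ± 0.10, adjusted p = 0.0177), against 3.23% of all probe sets, and the other 14 did not pass. The call for AT1G76600 was lost in 15 of 25 fits that left out 1 array (limma adjusted p up to 0.0839), and that for AT2G23690 in 0 of 25. The list, drawn up by hand with earlier results of these data known, had a median change of 0.08 in both organs. Of 12 genes with pentatricopeptide in their name, 2 were measured, PPR336 and PPR596, and neither passed in roots (-0.13 and -0.30) or shoots (-0.16 and -0.23).

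Of the genes next to the 3 on the chromosome, 4 were measured, and none passed for the excess of the root change. AT4G30390, next to AT4G30380, rose by 0.42 ± 0.08 in hypoxic roots (log2, SE, limma adjusted p = 0.000749) and by 0.37 ± 0.08 in hypoxic shoots (adjusted p = 0.00712), with an excess in roots of 0.05 (adjusted p = 0.87). AT4G30400, one gene further, fell by 0.76 in roots (adjusted p = 5.54e-05) and by 0.45 in shoots (adjusted p = 0.015), and its excess in roots of -0.30 did not pass (adjusted p = 0.301). Its fall in shoots no longer passed without WT shoot hypoxia replicate 2, mpk6 shoot hypoxia replicate 2 or MPK6ox shoot normoxia replicate 1 (limma adjusted p of 0.0519 to 0.064). Near AT4G37240, neither AT4G37230 nor AT4G37250 passed in roots (0.05 and -0.26) or shoots (-0.05 and -0.30). The gene before AT2G34400 is NIP2;1, an aquaporin-family gene known for its induction by low oxygen in roots. NIP2;1 and the other neighbours of AT2G34400 were not analysed here, so its neighbourhood gave no value.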

How the data were processed

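Deposited values were on a log2 scale; the submitters' processing notes name RMA, by which the authors normalized the arrays, without a version. Total RNA went through 2 cycles of biotin labelling, per the labels. Whether all 25 arrays were normalized together is not given in the sources used here. No scaling or filter was added to the deposited values. Of 22810 probe sets, 64 controls (AFFX) were left out. By the probe annotation, 13513 carried 1 gene and 503 several, and the genes of 8730 were not used here. RefSeq's gene list (TAIR10.1) matched 13436 of the 13513 by gene ID and gave names and neighbours. The build behind the probe sets is not given, so no coordinates are printed.

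All 25 arrays entered 1 limma fit (version 3.58.1, R 4.3.3) with 12 group means and empirical Bayes moderation, on 13 residual plus 3.41 prior degrees of freedom. Adjusted p-values are Benjamini-Hochberg values over all probe sets of a comparison. The fit was tested on simulated data. Figures used Python 3.11.15 and matplotlib 3.10.9. A gene with several probe sets was read from the one with the highest mean. The text names the 3 genes, the 5 genes most like each, the 2 nearest genes on each side where they have a probe set, the markers, and up to 5 genes each way per list by the root excess. Expansin genes named for a change in 1 organ lie outside that rule and were picked with their values known. The 3 genes and all lists were chosen with earlier results of these data known. The lists of low-oxygen, DUF4228, root and photosynthesis genes were drawn up by hand, and those of expansin and pentatricopeptide genes come from names and synonyms in RefSeq. Alternatives were a replicate block, separate fits of roots and of shoots, leaving out the dimmest 25% of probe sets, quantile normalization, median centring, trend and robust moderation, array weights, and omission of each array.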

Additional observations from a re-analysis of the deposited data

How the results depend on the processing

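The hypoxia changes of the 3 genes in each organ, the excess of the root change and the normoxic organ difference, averaged over genotypes, moved by less than the spread between replicates under each alternative that could be run. Precision is limited by the number of arrays per group, and the signal was not set against background. With the replicate block 0 of the 54 tests of line against WT passed, as without it. The replicate numbers come from the titles, which do not say that a number marks a shared batch. Between groups the differences of replicate 1 and replicate 2 correlated at a median of 0.30 over 66 pairs of groups (-0.03 to 0.67), and the block raised the number of probe sets that changed in WT roots to 2579, against 1479 without it. The count of passing line tests ran from 0 to 1 with an array left out, the 1 being AT2G34400 in hypoxic mpk6 roots.

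Counts in the lists were less firm where they were small. For the DUF4228 genes the number that fell in roots was 1 with organs fitted separately, with centring and with array weights, and 1 to 2 with an array left out. The number with a larger change in roots was 1 to 2 with an array left out, and that with a smaller one was 1 with the replicate block and 0 to 1 with an array left out. For the expansin genes the number that rose in roots was 0 with organs fitted separately and 0 to 1 with an array left out, and the number with a smaller change in roots was 3 to 6. Fitting the organs separately gave no organ differences. The neighbour AT4G30400 did not pass in shoots without WT shoot hypoxia replicate 2, mpk6 shoot hypoxia replicate 2 or MPK6ox shoot normoxia replicate 1 (limma adjusted p = 0.064, 0.0601 and 0.0519). The causes were not tested.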

Other observations

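Within normoxic groups the array numbered 2 was above the array numbered 1 for AT4G37240 in 6 of 6 groups, by 0.29 to 0.81 log2 units, in roots and in shoots. In hypoxia this held in 2 of 6 groups. For AT4G30380 replicate 2 was below replicate 1 in all 6 hypoxic groups, by 0.04 to 1.09, and above it in 4 of 6 normoxic groups. AT2G34400 had replicate 2 above replicate 1 in 1 of 6 hypoxic and 2 of 6 normoxic groups. MPK6ox root hypoxia enters these counts with its replicates 1 and 2. These counts were chosen after the values were seen and were not tested.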
